A study of Mus musculus with 32 samples.

Results

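The genes of the endocannabinoid system were examined across the frontal cortex (FCtx) arrays of 32 female mice, 20 ethanol-treated mice and 12 controls. Every probe of the Illumina MouseRef-8 v2.0 array that carried the symbol Cnr1, Dagla, Napepld, Faah, Mgll, Abhd6 or Abhd12 was taken, which gave 13 probes of 7 genes among 25697 probes of 18138 genes. All mice were F1 hybrids of C57BL/6J and FVB/NJ, given by the labels as C57BL/6J x FVB/NJ F1 and by the Methods as reciprocal crosses. Ethanol-treated mice could choose between a bottle of 20% ethanol and a bottle of water in daily limited-access sessions in the dark over 20 days, in early adulthood. Ages in weeks were not given in the sources used here. Each mouse gave 1 array. The arrays lay on 4 chips of 8. Chips 1 and 2 held ethanol-treated mice only, and chip 4 held controls only. Chip 3 held 4 ethanol-treated mice at its odd positions and 4 controls at its even positions, so that it was the only chip on which both groups could be compared.

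Endocannabinoids are lipid messengers that a neuron makes on demand in its membrane and that act backwards across the synapse. They bind the CB1 receptor, encoded by Cnr1, on the presynaptic terminal and reduce transmitter release there. The ligand 2-arachidonoylglycerol (2-AG) is made by diacylglycerol lipase alpha (Dagla) and is broken down mainly by monoacylglycerol lipase (Mgll), with smaller parts for the hydrolases Abhd6 and Abhd12. The ligand anandamide can be released from its membrane precursor by the phospholipase Napepld and is broken down by fatty acid amide hydrolase (Faah). In the cortex CB1 is known from the terminals of cholecystokinin interneurons and, at lower density, of pyramidal neurons.

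Probes are named here by gene and by the base of the reference transcript at which the 50-base probe starts, as the array annotation gives it. The probes of the receptor, of the 2-AG synthesis enzyme and of the coding sequence of Mgll are shown because what could be measured of these genes turns on them. Letters are those of the array annotation, read 5′ to 3′, all in lower case since no part of a probe is singled out.
Cnr1 732: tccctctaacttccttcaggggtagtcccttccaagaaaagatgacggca
Cnr1 1852: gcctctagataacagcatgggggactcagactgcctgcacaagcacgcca
Dagla 3005: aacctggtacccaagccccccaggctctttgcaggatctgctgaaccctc
Dagla 3145: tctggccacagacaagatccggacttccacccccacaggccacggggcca
Mgll 376: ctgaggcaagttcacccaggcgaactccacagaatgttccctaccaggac
The letters of Mgll 376 encode the start of the Mgll protein, while Mgll 3582 and Mgll 3754 lie far downstream of it, toward the 3′ end of the transcript. Mgll 376 starts 3206 bases before Mgll 3582 on the transcript and 102350 bases from it on chromosome 6. Mgll 3582 and Mgll 3754 start 172 bases apart both on the transcript and on the chromosome, so that no intron separates their starts. The same holds for Faah 2506 and Faah 3688 on chromosome 4, which start 1182 bases apart on both, and for the 2 Cnr1 probes on chromosome 4, which start 1120 bases apart on both. Abhd12 was placed on chromosome 2 and Abhd6 on chromosome 14. The share of G and C ran from 46% in Faah 3568 to 66% in Dagla 3145, and was 56% in Mgll 376, 58% in Mgll 3582 and 56% in Mgll 3754.

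A probe counted as detected on an array where its detection p-value was below 0.01, and was tested if this held for 24 arrays or more. Of the 13 probes, 8 passed. These were the probes of the enzymes Napepld, Faah (2 of 3 probes), Mgll (all 3 probes), Abhd6 and Abhd12. The receptor and the 2-AG synthesis enzyme did not pass. Cnr1 732 and Dagla 3145 were detected on 0 arrays, Dagla 3005 on 2 and Cnr1 1852 on 9. Faah 3568, whose position is counted on an older version of the transcript, was detected on 0 arrays. Statements on change among the tested probes therefore cover 5 of the 7 genes. On the arrays as a whole, 10644 to 11544 probes were detected in ethanol-treated mice and 9480 to 11413 in controls, and the median signal ran from 166 to 203 and from 146 to 187. Control mouse C66 had the lowest median signal.

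**Figure D1:**
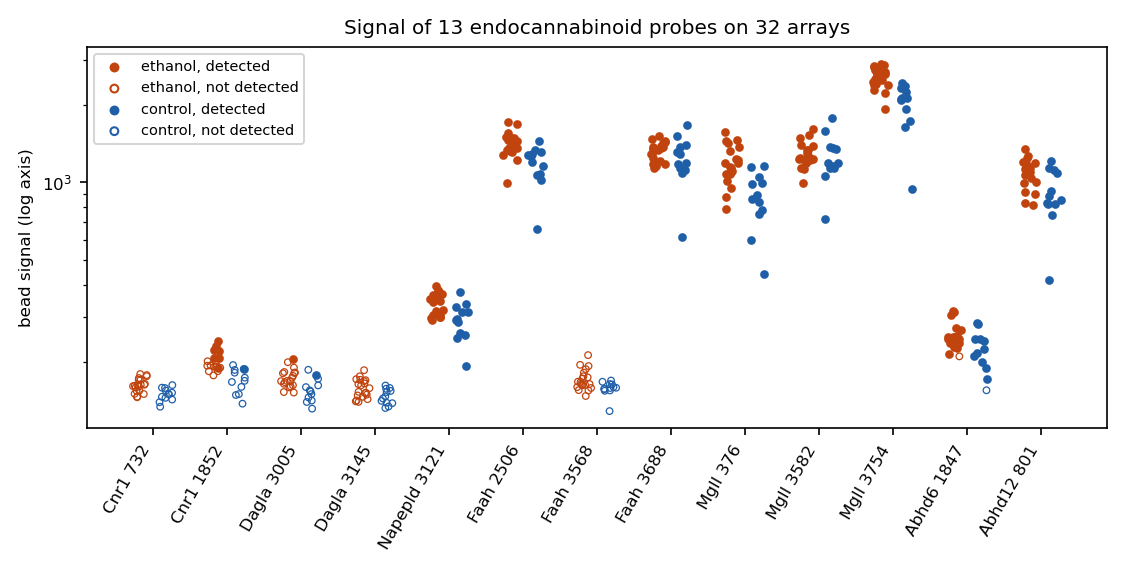
Bead signal (vertical axis, log scale, linear signal units, not normalized) of 13 endocannabinoid probes on 32 arrays, 1 point per mouse, ethanol-treated mice in orange and controls in blue. Filled points passed the detection threshold and open points did not; the points of Cnr1, Dagla and Faah 3568 sit between 129 and 241, and signals of different probes are not comparable as amounts of transcript.

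No probe of the CB1 receptor passed the detection filter, so the receptor was not among the probes tested for change. The signal of Cnr1 732 ran from 134 to 180, with a median of 159, and its lowest detection p-value on any array was 0.125. Cnr1 1852 had signals from 138 to 241, with a median of 191. It was detected in 8 of 20 ethanol-treated mice, 3 on chip 1, 4 on chip 2 and 1 on chip 3, and in 1 of 12 controls, on chip 4. Fisher's exact test on these shares gave a two-sided p of 0.103, which with so few detections does not show that they were equal. On the normalized log2 scale, Cnr1 1852 ran from 7.81 over a median of 7.89 to 8.08 in ethanol-treated mice and from 7.73 over 7.87 to 7.95 in controls. The groups overlapped over most of their range, while 14 of 20 ethanol-treated mice lay above the control median. In a fit of all 25697 probes, detected or not, Cnr1 1852 stood at 0.07 ± 0.03 (SE, adjusted p = 0.113). Cnr1 732 stood at -0.01 ± 0.02 (adjusted p = 0.85). On 23 of 32 arrays Cnr1 1852 was not well above background, so its value is not read as a change and no fold is given.

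Of the synthesis enzymes, Dagla was likewise not well above background in either group. Dagla 3005 was detected in 1 ethanol-treated mouse and 1 control, with signals from 132 to 205, and Dagla 3145 had signals from 133 to 186. Napepld 3121 was dim but detected on all 32 arrays. Its level was 8.26, 8.50 and 8.62 (lowest, median and highest, normalized log2 scale) in ethanol-treated mice and 8.34, 8.44 and 8.65 in controls. The range of the controls reached past that of the ethanol-treated mice at its upper end, and the means differed by 0.03 ± 0.04 (SE) on the log2 scale (adjusted p = 0.646).

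Among the degrading enzymes, Mgll was the gene with a call. Of the 8 tested probes, 1 was called at a false discovery rate (FDR) below 1%, Mgll 3754, and it was higher in ethanol-treated mice. Over all 10187 probes tested, 8.27% were called at that threshold, 3.59% as higher and 4.67% as lower, so that 1 of 8 is close to the share of the whole array. At an FDR below 10%, 3 of 8 passed, against 25.4% of all probes (11.9% higher, 13.5% lower), and these were the 3 probes of Mgll. They did not move together. Mgll 376 and Mgll 3754 rose at that threshold, and Mgll 3582, which starts only 172 bases before Mgll 3754, fell. The median log2 difference was 0.03 over the 8 probes and -0.00 over all probes tested. Of the 8, 6 were above 0, against 48.4% of all probes tested, and 2 of these 6 were probes of Mgll. In bulk tissue, fewer cells of a type cannot be told apart from less transcript per cell.

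The level of Mgll 3754, the probe nearest the 3′ end, was 11.06, 11.22 and 11.44 (lowest, median, highest) in ethanol-treated mice and 10.86, 11.10 and 11.21 in controls. The ranges overlapped, but 18 of 20 ethanol-treated mice exceeded the control median. The mean was 11.23 ± 0.09 (SD, n = 20) against 11.07 ± 0.10 (n = 12), a difference of 0.15 ± 0.04 (SE) on the log2 scale or 1.11-fold (adjusted p = 0.00347).

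Mgll 376, in the coding sequence, spread most among mice. Its level was 9.44, 10.09 and 10.56 in ethanol-treated mice and 9.48, 9.89 and 10.24 in controls. Of the ethanol-treated mice 19 of 20 lay above the control median, and the remaining mouse, A29, was the lowest of all 32. The difference was 0.23 ± 0.08 on the log2 scale, or 1.17-fold (adjusted p = 0.0314). Without A29 it was 0.26 and Mgll 376 was called at an FDR below 1% (adjusted p = 0.0041), so that 2 member probes were then called in place of 1. Leaving out A29 was not planned beforehand, and it removed the 1 ethanol-treated mouse that was not above the control median. The share of all probes called without A29 is not given here.

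Mgll 3582 went the other way. Its level was 9.93, 10.25 and 10.43 in ethanol-treated mice and 10.19, 10.37 and 10.74 in controls. Only 4 of 20 ethanol-treated mice lay above the control median, and the highest of all mice was the control C66. Before normalization, C66 had the lowest signal of this probe, 720. The median signal before normalization was 1298 and 1232 on chips 1 and 2 and 1151 on chip 4. On chip 3 it was 1222 in ethanol-treated mice and 1476 in controls. Such signals also carry the brightness of the whole array. The difference in normalized level was -0.17 ± 0.05, or 1.13-fold lower (adjusted p = 0.0141).

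**Figure D2:**
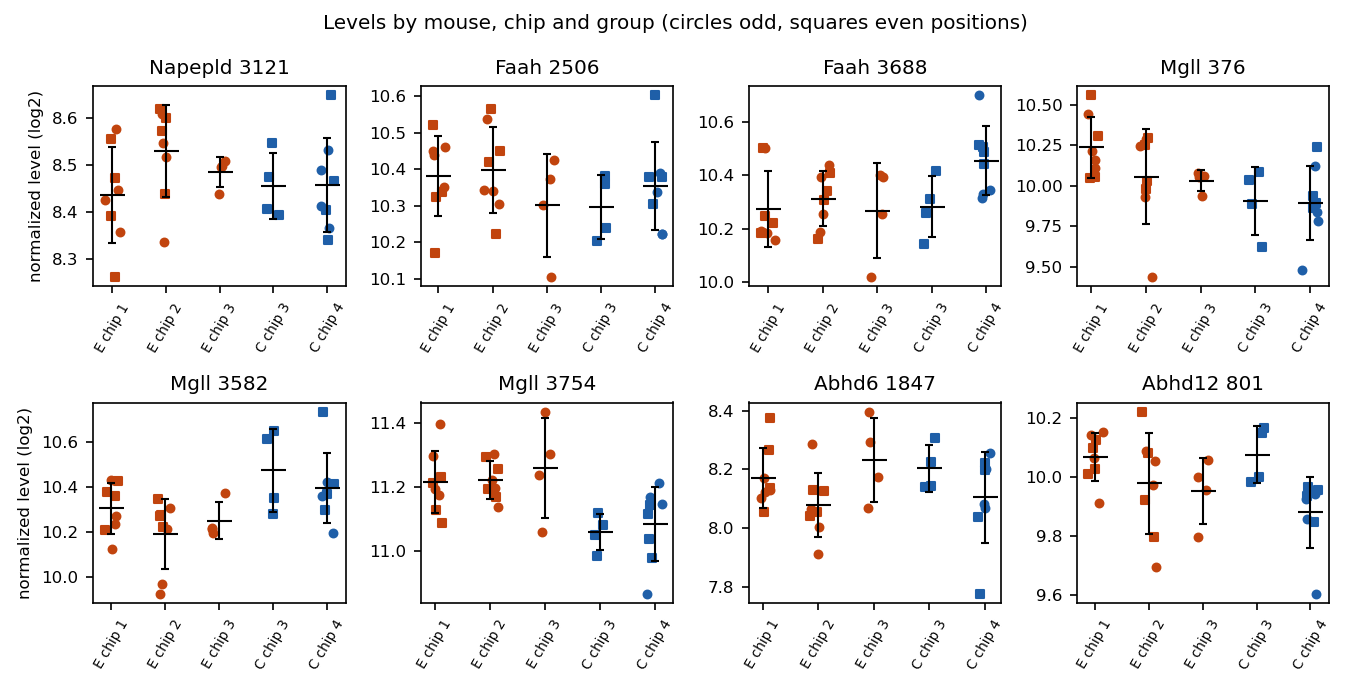
Normalized level (vertical axis, log2) of the 8 tested probes by chip and group, 1 point per mouse (E, ethanol-treated, orange; C, control, blue; circles odd positions, squares even positions), with the mean and SD of each set as bars. Mgll 3754 and Mgll 376 sit higher in ethanol-treated mice and Mgll 3582 lower, with overlap in each panel; each panel has its own scale.

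The disagreement within Mgll was measured directly, as the log2 difference between probes on the same array, in which a shift of the whole array cancels. This comparison, and the same one for Faah, was chosen after the values of the single probes were seen, and 4 pairs of probes were compared with adjustment over them. Mgll 3754 minus Mgll 3582 was 0.98 ± 0.18 (SD, n = 20) in ethanol-treated mice and 0.65 ± 0.19 (n = 12) in controls. All 20 ethanol-treated mice lay above the control median, and the groups overlapped between 0.69 and 0.95. The difference of 0.33 had a permutation p of 5.0e-05 (two-sided, 100000 resamples, adjusted p = 2.0e-04). Mice were regrouped without regard to chip, so this p and those of the other pairs cannot separate group from chip. Mgll 376 minus Mgll 3582 was also higher in ethanol-treated mice, by 0.40 (permutation test, adjusted p = 0.0015), in 19 of 20 mice against the control median. Mgll 376 minus Mgll 3754 differed by 0.07, within the spread between mice (permutation test, adjusted p = 0.413). The probe between the other two thus changed unequally with both of them.

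On chip 3, the only chip with both groups, the directions of the Mgll probes were the same. Mgll 3754 was 11.06, 11.24, 11.30 and 11.44 in the 4 ethanol-treated mice and 10.98, 11.05, 11.08 and 11.12 in the 4 controls. Mgll 3582 was 10.20, 10.21, 10.22 and 10.37 in the ethanol-treated mice and 10.28, 10.35, 10.61 and 10.65 in the controls. In both probes the ethanol-treated mouse A50 alone reached into the range of the controls. The differences were 0.20 ± 0.07 for Mgll 3754 (adjusted p = 0.0836) and -0.22 ± 0.08 for Mgll 3582 (adjusted p = 0.0854), so that 2 of 8 probes passed an FDR of 10%, where 17.1% of all probes did, and 0 passed 1%, where 3.16% did. An exact permutation test gave each a p of 0.0857, where 4 mice against 4 can reach 0.0286 at the lowest. Mgll 3754 minus Mgll 3582 averaged 1.01 ± 0.23 against 0.58 ± 0.17 (SD, n = 4 each) and was above the control median in 4 of 4 ethanol-treated mice (exact permutation test, p = 0.0571, adjusted p = 0.114). Mgll 376 was 9.94, 10.05, 10.06 and 10.08 in ethanol-treated mice and 9.62, 9.89, 10.04 and 10.08 in controls, where the groups overlapped throughout (difference 0.13 ± 0.08, adjusted p = 0.37).

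Group and chip were entangled on the other chips, and Mgll 3582 differed between odd and even positions there at an FDR below 10%. Within each of those chips, mice at odd positions had lower mouse numbers than mice at even positions. Position can therefore not be told apart from the order of the mice. Ethanol-treated mice of chips 1 and 2 against controls of chip 4 gave 0.14 ± 0.04 for Mgll 3754 (adjusted p = 0.019), 0.25 ± 0.09 for Mgll 376 (adjusted p = 0.0494) and -0.15 ± 0.06 for Mgll 3582 (adjusted p = 0.0732). There chip and group cannot be told apart. None of the 8 probes was called at 1% in that comparison, in which 11.8% of all probes were, and 5 passed 10%, against 31.7%. Within chips 1, 2 and 4, Mgll 3582 was 0.12 ± 0.05 higher at even than at odd positions (adjusted p = 0.0954), where 20.1% of all probes passed an FDR of 10%. The ethanol-treated mice of chip 3 were all at odd positions, so that group and position cannot be told apart there. Mgll 3754 differed by -0.04 ± 0.04 and Mgll 376 by 0.12 ± 0.08 between even and odd positions (adjusted p = 0.553 and 0.375). The probe difference Mgll 3754 minus Mgll 3582 also varied with position on these chips, by -0.16 for even minus odd (permutation test, p = 0.0222, adjusted p = 0.0889). For Mgll 376 minus Mgll 3582 the value was -0.01 (permutation test, adjusted p = 0.95). With chip as a fixed block, the group difference comes from chip 3 alone, since each other chip held a single group. That fit therefore repeats the chip 3 difference with another error term. Mgll 3754 stood there at 0.20 ± 0.07 and was not called (adjusted p = 0.108), where 0.206% of all probes were. With chip and position both in the fit, the position term comes from chips 1, 2 and 4. The group term again rests on chip 3. There 0.0196% of all probes were called. Mgll 3754 stood at 0.16 ± 0.08 (adjusted p = 0.533) and Mgll 3582 at -0.10 ± 0.10 (adjusted p = 0.806).

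**Figure D3:**
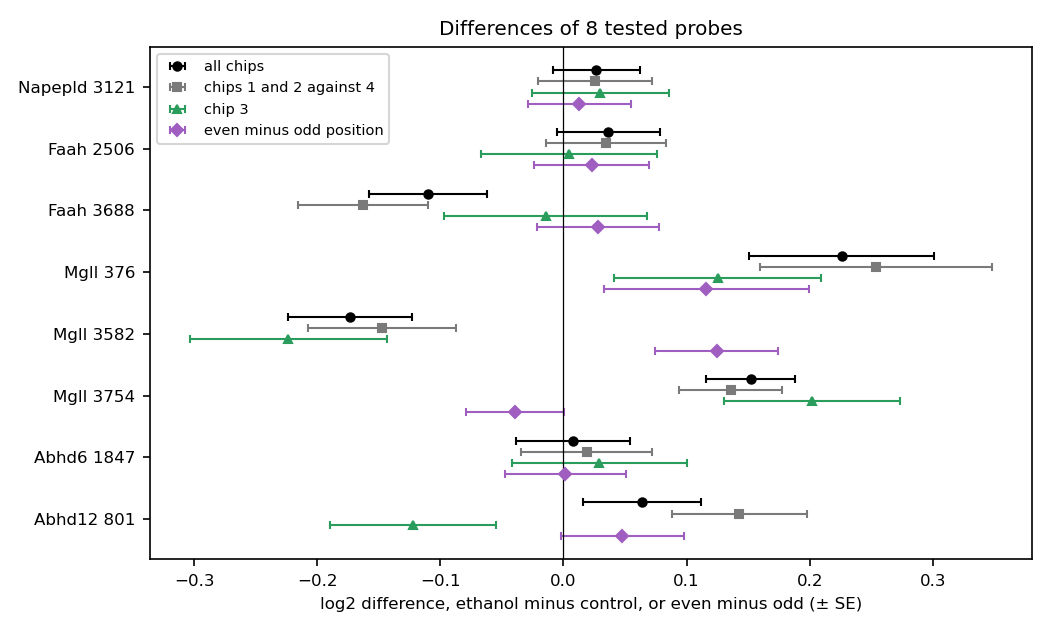
Log2 difference (horizontal axis) of the 8 tested probes with its SE as bars, for ethanol-treated minus control mice on all chips, for chips 1 and 2 against chip 4 and for chip 3, and for even minus odd positions on chips 1, 2 and 4. The 3 ethanol comparisons of each Mgll probe lie on the same side of 0, while those of Abhd12 801 lie on both sides.

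Faah, the enzyme that degrades anandamide, had no call, and its probes differed from each other. Faah 3688 was 10.02, 10.25 and 10.50 (lowest, median, highest) in ethanol-treated mice and 10.14, 10.38 and 10.70 in controls, a difference of -0.11 ± 0.05 on the log2 scale (adjusted p = 0.107). Faah 2506 was 10.10, 10.36 and 10.57 against 10.20, 10.35 and 10.60, a difference of 0.04 ± 0.04 (adjusted p = 0.588). Both probes overlapped widely between the groups. On the same array, Faah 2506 minus Faah 3688 was 0.08 ± 0.17 (SD) in ethanol-treated mice and -0.06 ± 0.16 in controls, and 18 of 20 ethanol-treated mice lay above the control median (permutation test, adjusted p = 0.0272). That difference stood on chips 1 and 2 against chip 4 (0.20, permutation test, adjusted p = 0.00572). On chip 3 it was 0.02 (exact permutation test, p = 0.914), with the Faah 3688 levels of the ethanol-treated mice, 10.02, 10.26, 10.40 and 10.40, reaching past those of the controls, 10.14, 10.26, 10.31 and 10.42, at the lower end alone. Whether the chip 3 and chips 1, 2 and 4 values of this probe difference are unlike each other was not tested. For Faah 3688 alone the contrasts, -0.01 on chip 3 and -0.16 elsewhere, did not differ past the threshold (difference 0.15 ± 0.10, adjusted p = 0.39).

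**Figure D4:**
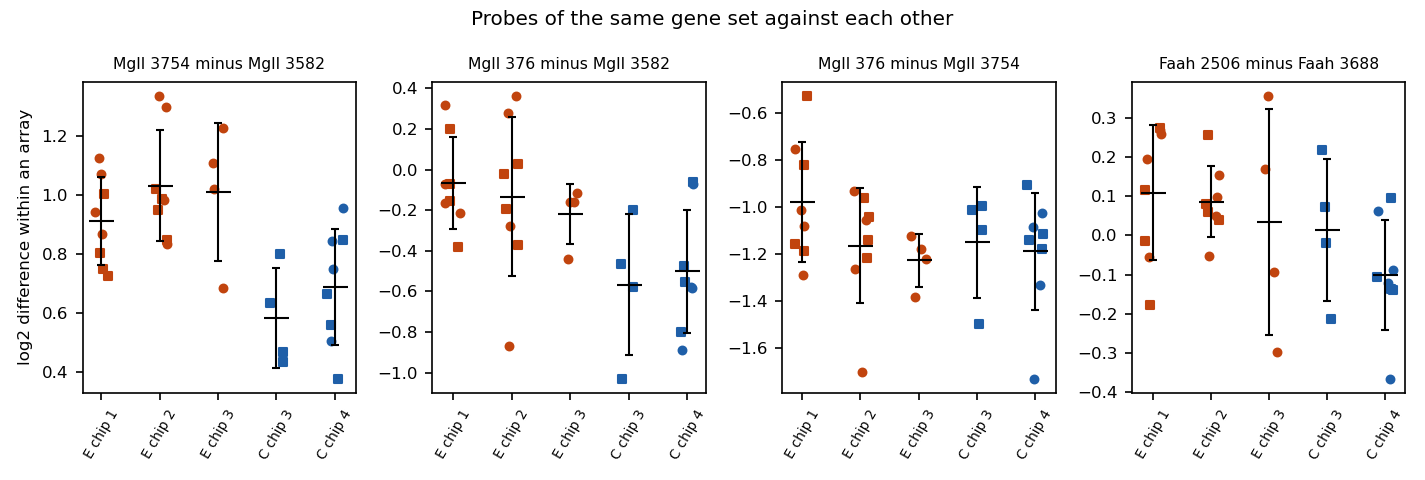
Log2 difference between probes of the same gene on the same array (vertical axis), 1 point per mouse by chip and group (E, ethanol-treated, orange; C, control, blue; circles odd positions, squares even positions), with the mean and SD of each set. In the 2 panels that subtract Mgll 3582, the mean of each ethanol set lies above the mean of each control set, and the panel of Mgll 376 minus Mgll 3754 does not separate the groups.

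The minor 2-AG hydrolases showed no call. Abhd6 1847 was 7.91, 8.13 and 8.40 in ethanol-treated mice and 7.78, 8.17 and 8.31 in controls. Its difference of 0.01 ± 0.05 was the smallest among the 8 probes (adjusted p = 0.931), and the control C63 set the lower end of the range. Abhd12 801 was 9.70, 10.04 and 10.22 against 9.61, 9.95 and 10.17 (difference 0.06 ± 0.05, adjusted p = 0.379). It was the probe whose direction turned between chips. On chip 3 the ethanol-treated mice ran from 9.80 to 10.06 and the controls from 9.98 to 10.17, a difference of -0.12 ± 0.07 (adjusted p = 0.266). Chips 1 and 2 against chip 4 gave 0.14 ± 0.05 (adjusted p = 0.0566). The contrast of the 2 comparisons, -0.26 ± 0.10, passed an FDR of 10% and not of 1% (adjusted p = 0.0805), where 16.3% and 3.52% of all probes passed.

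The standard error over beads of a single array was 0.07 to 0.09 on the log2 scale for the tested probes, at a median of 35.5 to 47 beads per probe. The SD between mice of the same group, chip and position parity was 0.10 for Napepld 3121 and for Mgll 3754, 0.12 to 0.14 for both Faah probes, Mgll 3582, Abhd6 1847 and Abhd12 801, and 0.23 for Mgll 376. The bead error was 0.08 for both Mgll 376 and Mgll 3754.

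Levels of the 8 probes were then compared with each other across the 32 mice, after the mean of each of the 8 sets of 4 arrays that share group, chip and position parity was taken off. Of 28 pairs, 0 passed an adjusted p of 0.05 by permutation within sets. By an unadjusted p below 0.05, 2 did, Mgll 3582 with Mgll 376 and Abhd12 801 with Faah 3688. The former, 2 probes of the same gene, ran against each other (Pearson r = -0.54, permutation p = 0.00908, adjusted p = 0.254; Spearman rho = -0.50, permutation p = 0.0139, adjusted p = 0.389), and r was -0.50 without the 2 arrays farthest from the median of Mgll 3582. Mgll 3582 and Mgll 3754 had an r of -0.09, and Faah 2506 and Faah 3688 an r of 0.09. No pair of probes of the same gene had an r above 0.09.

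The probes most like Mgll 3582 over the same residuals were Camk2a 4544 (r = 0.81), which encodes a synaptic kinase abundant in pyramidal neurons, Uba1 (r = 0.78), the ubiquitin-activating enzyme, and Icmt (r = 0.77). Those most like Mgll 376 were Etv1 (r = 0.80), a transcription factor of deep-layer cortical neurons, Dusp28 (r = 0.76) and Slc35e3 (r = 0.75). For Mgll 3754 they were Srpr (r = 0.70), Uap1 (r = 0.68) and Zmat3 (r = 0.65). The 3 lists share no gene. An r above 0.5 was reached by 3.37% of probes with Mgll 3582, by 2.67% with Mgll 376 and by 0.618% with Mgll 3754. The closest probe was Kcnk6 for Faah 2506 (r = 0.76, then Osbpl3 and Foxred1), Fen1 for Faah 3688 (r = 0.70, then Irgq and Trub1), Cct3 for Abhd12 801 (r = 0.70, then Necab3 and Pcsk7), Gcs1 for Abhd6 1847 (r = 0.66, then Rundc1 and Eif3s1) and 1810008A18Rik for Napepld 3121 (r = 0.73, then 1110017D15Rik and Smarcd2). These correlations are descriptions over 32 arrays that share chips and tissue dissections.

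Because Mgll 3582 went with Camk2a 4544, its level was set beside the marker lists of cell types, a comparison chosen after the data were seen. Of 64 relations between the 8 probes and 8 marker lists, 1 passed an adjusted p of 0.05. Mgll 3582 rose with the mean level of pyramidal neuron markers (Pearson r = 0.71, permutation p = 2.5e-04, adjusted p = 0.016; Spearman rho = 0.72, permutation p = 9.0e-05, adjusted p = 0.00576). It stayed at r = 0.61 without the 2 arrays farthest from the median marker level. Camk2a is itself in that list, where it supplies 2 of 5 tested probes, so that this relation in part repeats the one that prompted it. Without Camk2a, r was 0.48 (permutation p = 0.014) and the relation did not pass over the 64 (adjusted p = 0.242). Mgll 3754 and Mgll 376 had an r of 0.18 and -0.36 with the same list (adjusted p = 0.652 and 0.421).

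**Figure D5:**
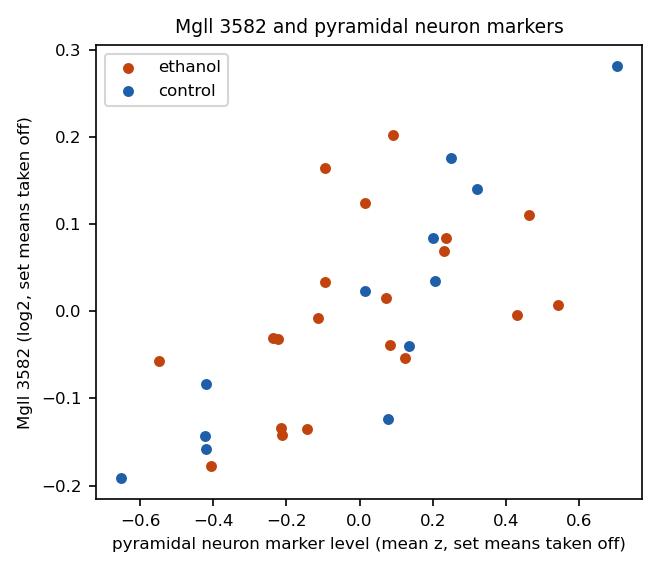
Mgll 3582 (vertical axis, log2) against the mean standardized level of pyramidal neuron marker probes (horizontal axis, mean z), 1 point per mouse, both after the mean of each of the 8 sets of 4 arrays was taken off; ethanol-treated mice in orange, controls in blue. The points rise together (r = 0.71), and the control at the upper right is the highest in both measures.

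The markers were also compared between the groups. Of 61 marker probes tested in 9 lists, 5 were called, a share close to the 8.27% of all probes. Slc17a7, the vesicular glutamate transporter of cortical pyramidal neurons, fell by 0.26 on the log2 scale (adjusted p = 0.00432), Tbr1, a transcription factor of deep-layer neurons, by 0.33 (adjusted p = 3.1e-04) and Nrgn by 0.18 (adjusted p = 0.00502). Aqp4, the water channel of astrocytes, rose by 0.50 (adjusted p = 0.00107), as the only one of 9 astrocyte probes called, in a list whose median was 0.01. Of 3 probes of the myelin gene Mbp, 1 rose by 0.59 (adjusted p = 0.00939) and the others stood at -0.06 and -0.14 (adjusted p = 0.701 and 0.116). The rising probe was the only one of 15 oligodendrocyte probes called. The median of that list was -0.09 on all chips and -0.37 on chip 3, and 0.14 for even minus odd positions on the other chips. Camk2a also differed between its probes, at 0.19 for Camk2a 3318 and -0.09 for Camk2a 4544 (adjusted p = 0.0116 and 0.331). The pyramidal list had 5 probes tested with a mean level per array from 11.69 to 12.003 in ethanol-treated mice and from 11.79 to 12.17 in controls, ranges that mostly overlap, and its gene Neurod6 was detected on 0 arrays. Its tested probes had a median difference of -0.18 on all chips and -0.30 on chip 3. Within the other chips, their even positions, which on chip 3 held the controls, were higher by a median of 0.13. The part of these probes in the fall of Mgll 3582 was not tested. The olfactory bulb marker Pcdh21 varied by an SD of 0.99 in ethanol-treated mice and 1.02 in controls and was 1.40 higher in the ethanol-treated mice of chip 3 (adjusted p = 9.1e-04). Those mice were all at odd positions, so that group and position cannot be told apart there. On the other chips the olfactory bulb list had a median even minus odd difference of -0.33. Of the relations between the 8 endocannabinoid probes and the olfactory bulb list, 0 passed after adjustment. The lowest unadjusted values were those of Mgll 3754 (Pearson r = -0.44, permutation p = 0.00566, adjusted p = 0.175) and Faah 3688 (r = -0.48, permutation p = 0.00819, adjusted p = 0.175). Faah 2506 followed (r = -0.46, permutation p = 0.0215, adjusted p = 0.242). Only Abhd12 801 had a positive r, of 0.24. The part of the olfactory bulb list in the group differences of these probes was not tested.

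Other genes of the pathway were followed through 6 lists. Of 27 genes, 23 were on the array and 12 had a tested probe, 15 probes in all, of which 1 was called and 2 passed an FDR of 10%, against 8.27% and 25.4% of all probes. The call was Sgip1 3524, from a protein that binds CB1 and slows its internalization. It was 9.42 ± 0.11 (SD, n = 20) in ethanol-treated mice and 9.22 ± 0.20 (n = 12) in controls, a rise of 0.20 ± 0.05 (adjusted p = 0.006). The rise stood on chips 1 and 2 against chip 4, at 0.31 ± 0.05 (adjusted p = 1.7e-04), and the value on chip 3 was -0.01 ± 0.06 (adjusted p = 0.922). The contrasts differed by -0.32 ± 0.10, which passed an FDR of 10% and not of 1% (adjusted p = 0.0312). A further Sgip1 probe, Sgip1 3397, was at 0.11 on all chips (adjusted p = 0.117), and its contrasts, -0.14 on chip 3 and 0.22 elsewhere, differed by -0.36 ± 0.09 (adjusted p = 0.00926). The Gq family gene Gna11, upstream of 2-AG synthesis, was at -0.17 ± 0.06 and passed only 10% (adjusted p = 0.0354), with an even minus odd difference of 0.26 ± 0.04 (adjusted p = 4.8e-04). Gde1, a phosphodiesterase of an alternative route to anandamide, fell on chip 3 by 0.34 and 0.35 in its probes (adjusted p = 0.00792 and 0.00337) and was at -0.11 and -0.00 on all chips (adjusted p = 0.116 and 0.993). Within the other chips its even positions, which on chip 3 held the controls, were higher by 0.14 and 0.19. The other receptors Cnr2, Gpr18, Gpr119 and Trpv1 and the enzymes Naaa and Ptgs2 were detected on 0 arrays.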

How the data were processed

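The deposited table gives, per the file headers, intensities averaged by the authors over the beads of a probe and summarized without normalization. The detection p-values were deposited by the authors beside them. On this platform such values set a probe against the negative control beads of its array, and the software that computed them is not given in the sources used here. Other deposited columns hold the bead standard error and the bead number. The submitters' processing notes name lumi and limma. The annotation columns name no genome build, so no position is printed.

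Signals were variance-stabilized after lumi's transform, rewritten from the bead standard errors, and quantile normalized in R 4.3.3. Probes detected on 24 or more of the 32 arrays (10187 of 25697) were compared with limma 3.58.1, without covariates. Benjamini-Hochberg adjustment ran over all of them, unless a family of comparisons is named. Permutation tests (two-sided) used Python 3.11.15 and numpy 2.4.6 with 100000 resamples, or all regroupings on chip 3. Those of probe differences between the groups on more than 1 chip regrouped mice without regard to chip. Named were all member probes, called members of the pathway and marker lists, and the 3 probes most like each member; the other list genes named were chosen after their values were seen. The genes and lists were chosen with earlier results of these data known. Each array is 1 mouse, and the labels do not pair arrays with RNA extraction batches. The number of arrays limits the precision. Alternatives were other transforms and scalings, probe filters, chip and position terms, array weights and left-out mice. Transform and tests were checked on simulated data. With 20 mice against 12, an FDR below 1% recovered 45 of 100 probes changed by 0.15 and 97 of 100 changed by 0.3. With 4 against 4, the size of chip 3, it recovered 0 of 100 at either log2 size. A missing call therefore does not show that a probe was unchanged. The level of 1 marker gene is not reported here.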

Additional observations from a re-analysis of the deposited data

Results flagged for a closer look

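In the 40 sets of 1 probe, 1 group and 1 chip, 6 values stood far from the rest of their set, and chance alone gives about 1 in 20 sets. The control C66 gave more than 1 of these values, and probes on the same array are not independent. On chip 4, the control C57 was low in Abhd12 801 at 9.61, the control C63 low in Abhd6 1847 at 7.78, and the control C66 high in Faah 2506 at 10.60 and in Mgll 3582 at 10.74. C66 was also the array with the lowest median signal, and before normalization its signals of Faah 2506 and Mgll 3582 were the lowest of all mice. On chip 3, the ethanol-treated mouse A50 was high in Mgll 3582 at 10.37. On chip 2, the ethanol-treated mouse A29 was low in Mgll 376 at 9.44.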

How the results depend on the processing

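The count of 1 called probe became 0 with median scaling, with chip as a fixed or a random block and with chip and position together, 3 at an FDR of 10%, and 2 without A29. Mgll 3754 kept its direction in all alternatives run (0.14 to 0.20). It was no longer called with median scaling (0.17, adjusted p = 0.138), chip as a random block (0.16, adjusted p = 0.0311), a fixed block (0.20, adjusted p = 0.108), or chip and position (0.16, adjusted p = 0.533). The fixed block, with or without position, takes the group difference from chip 3 alone, so it is no check separate from that chip. Abhd12 801 reversed to -0.12 with chip as a fixed block and -0.074 with position added, Faah 3688 to 0.014 with both, and Abhd6 1847 to -7.0e-05 without A50 and -0.025 without C63 (highest among the left-out mice 0.015, without C66). Without C66, A50, C57 or C63 in turn, 1 probe was called. The shares of all probes called in these fits and without A29 are not given here. Chip 1 alone against chip 4 called 1 of the 8 probes, where both chips called 0 of them and 11.8% of all probes. The share of all probes with chip 1 alone is not given here, and chip and group cannot be told apart in it. Leaving out each mouse of chip 3 in turn called 0 of the 8 probes throughout, where 112 to 393 of all 10187 probes were called. Pathway calls fell from 1 to 0 with median scaling and both chip fits, and marker calls from 5 to 2 with median scaling, 1 with the chip block and 0 with position added. Over all probes, 842 were called (366 higher, 476 lower), 132 (85 higher, 47 lower) with median scaling, 21 with chip as a fixed block, 79 as a random block and 2 with chip and position. The probe differences kept their side of the threshold under other scalings and without C66 or A29, Mgll 3754 minus Mgll 3582 at 0.30 to 0.35. No fit with chip or position terms was run for them. No paired analysis was possible because the groups share no mouse number. The number of arrays on chip 3 limits that comparison, and the dim probes of Cnr1 and Dagla were fitted only without the detection filter.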
